A study of Homo sapiens with 3 samples.

Results

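The solute carrier genes, written SLC, encode membrane proteins that move amino acids, sugars, ions, metals, vitamins and metabolites across the cell surface and the membranes of mitochondria, the Golgi and lysosomes. The genes described here were all symbols starting with SLC and a digit, without a hyphen, that received at least 5 counts in each of 3 RNA sequencing libraries of HEK293. There were 76 such genes among 380 SLC names and 26485 gene names in the count tables. The counts themselves chose these genes, so their levels are given as a description and without a test. Of the 76, 3 are named after a carrier without being one: SLC7A6OS is a gene on the opposite strand of SLC7A6, SLC4A1AP encodes kanadaptin and SLC9A3R1 encodes the scaffold protein NHERF1.

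HEK293 is a human cell line made by transforming kidney cells of an embryo with adenovirus DNA. It was grown in DMEM with fetal calf serum, and the series holds 1 condition in triplicate with no treatment, so the 3 libraries form 1 group and no contrast between groups exists. TRIzol-extracted RNA had its ribosomal RNA removed before a strand-preserving library preparation, although the sample titles call the libraries mRNA sequencing. Separate cultures are not named in the labels, so p-values here measure only how these 3 samples vary, which may be technical.

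Carriers work as gates that open to one side of the membrane at a time. Some exchange one solute for another and some use the sodium or proton gradient to move a solute uphill. Several act only as part of a pair: SLC7A6 is a light chain that needs the heavy chain SLC3A2, and SLC3A1 is the heavy chain of the cystine transporter of the kidney tubule. In dividing cells in culture, amino acid carriers, the glucose transporter SLC2A1 and the mitochondrial carriers of ADP, ATP and phosphate are known to be among the most abundant members of the superfamily.

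Gene-assigned totals were between 289241 and 483114 counts, which was 2.02% ± 0.396 (SD, n = 3) of everything the counter tallied, and a further 91.2% ± 0.472 fell in no annotated feature. A single count was worth between 2.29 and 3.30 CPM (counts per 1000000 of the scaled library size), and a count of 0 allows a level of up to 6.86 to 9.89 CPM, depending on the library, which is the value of 3 counts. These limits cover counting error only. Replicates 1 and 3 were closer to each other (chi-square per degree of freedom 2.87 over 3798 genes) than either was to replicate 2 (13.2 and 10.6). This value is an average over genes, to which a given fold difference adds more in an abundant gene. Of 10 markers listed for the line, 3 reached 5 counts in every library (VIM, KRT8 and NEFL) and PAX2 had no count, and all 5 listed markers of fibroblasts and liver were at 0, as were the blood markers PTPRC and HBB. VIM, KRT8 and NEFL each share exonic bases with genes on the opposite strand, so the limit given below for such genes applies to them. For KRT8 that gene is KRT18, itself a listed marker, which had 1, 0 and 0 counts in replicates 1, 2 and 3. The listed blood marker CD74 had 19, 2 and 7 counts in replicates 1, 2 and 3, and its part in any result was not tested.

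Sequences from 3 of the 7 highest SLC genes are shown. They hold coding bases of the SLC gene that are at the same time part of an exon of a gene read from the other strand. They are from GENCODE 29 transcripts on GRCh38, on the minus strand and written 5′ to 3′ as the SLC transcript reads; capitals mark the bases opposite the exon of the partner.
SLC16A4, chr1:110382834-110382966, opposite the non-coding LAMTOR5-AS1: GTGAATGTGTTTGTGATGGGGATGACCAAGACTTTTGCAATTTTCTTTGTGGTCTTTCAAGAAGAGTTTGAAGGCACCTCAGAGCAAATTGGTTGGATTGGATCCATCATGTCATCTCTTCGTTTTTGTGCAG
SLC9B1, chr4:102885236-102885328, opposite CISD2: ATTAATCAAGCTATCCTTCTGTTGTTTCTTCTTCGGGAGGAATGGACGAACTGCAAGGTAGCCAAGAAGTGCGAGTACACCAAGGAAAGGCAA
SLC22A23, chr6:3289789-3289866, opposite PSMG4: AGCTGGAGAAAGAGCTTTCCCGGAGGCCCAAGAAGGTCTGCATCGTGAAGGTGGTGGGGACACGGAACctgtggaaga
All 133 bases of the SLC16A4 stretch and all 93 of the SLC9B1 stretch lie opposite the partner, and so do 68 of the 78 shown for SLC22A23. The 93 bases in SLC9B1 and the 68 in SLC22A23 are also coding sequence of CISD2 and PSMG4. Only gene totals were analysed, so where the reads fell in these genes is not known. A read that lies, with any mate, wholly within such a stretch can be given to the right gene only by its strand. No source used here gives the strand setting that was used for counting. For every gene with an exon opposite, the counts are therefore uncertain as a measure of that gene or of its partner. Where no exon lies opposite, what a low count or a 0 says of a gene depends on that setting too.

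A second pair is shown because its members share a near-identical coding stretch. SLC35E2, matched to the current symbol SLC35E2A, and SLC35E2B are neighbours on the short arm of chromosome 1 and belong to the family of Golgi nucleotide sugar carriers. Over 587 aligned coding bases, of 798 and 1215 in all, they differed at 1 base (99.8% identity), over 5655 aligned transcript bases identity was 87.7%, and in the 120 bases below that base is in capitals.
SLC35E2, chr1:1738934-1739053: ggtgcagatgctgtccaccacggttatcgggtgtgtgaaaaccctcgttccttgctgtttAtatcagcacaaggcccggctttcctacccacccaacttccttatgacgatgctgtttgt
SLC35E2B, chr1:1676076-1676195: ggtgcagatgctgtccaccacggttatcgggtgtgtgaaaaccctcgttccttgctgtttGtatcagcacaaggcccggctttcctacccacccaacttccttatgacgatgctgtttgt
SLC35E2 had 88, 49 and 37 counts and SLC35E2B had 44, 67 and 37 in replicates 1, 2 and 3. Replicate 1 was the high library for SLC35E2, which passed the test of spread between replicates, and SLC35E2B did not pass it. These calls depended on the libraries used. Without replicate 3 both genes passed, and without replicate 1 or without replicate 2 neither did. How reads from the shared stretch were split between the copies is uncertain.

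Together the 76 genes received 5547, 5490 and 3949 counts in replicates 1, 2 and 3, or 1.28% ± 0.127 (SD, n = 3) of gene-assigned counts. Their summed level was 12783 ± 202 CPM (SD, n = 3), and they held 90.0% ± 1.51 of all counts under SLC names. Of the 380 SLC names, 121 stayed without a count, 152 had at least 1 count in each library and 12 had at least 100 in each. Over all gene names, 14.3% met the threshold of 5 counts that 76 of the 380 SLC names met. In bulk libraries such as these, fewer cells expressing a gene and less RNA per cell cannot be told apart. A few genes carried most of the sum: the 4 highest held 32.5% ± 2.07 and the 10 highest 57.5% ± 2.00 (SD, n = 3) of the counts of the 76.

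**Figure D1:**
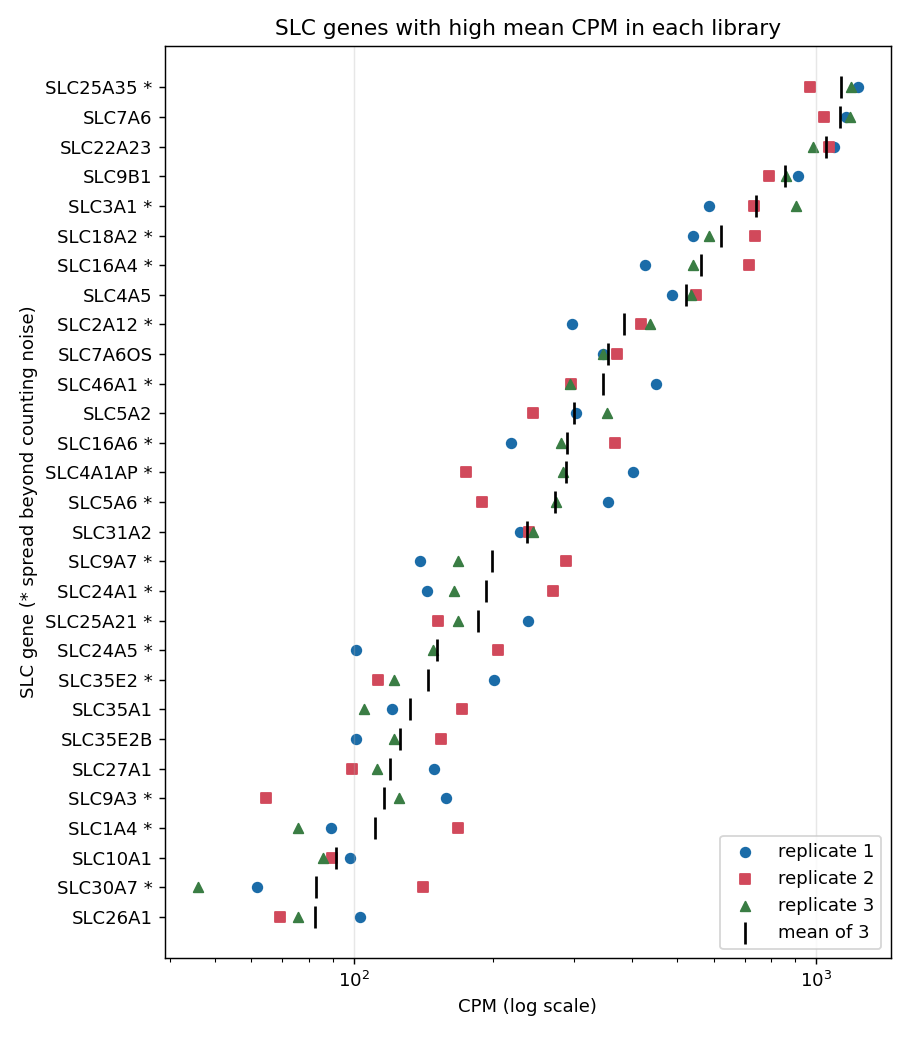
CPM in each library (log axis) of 29 SLC genes from the top of the order by mean, with the mean as a vertical bar and a star for spread between replicates beyond counting noise. SLC25A35, SLC7A6 and SLC22A23 have means above 1000 CPM, and replicate 2 is the outermost library for many of the starred genes, such as SLC9A7 and SLC4A1AP.

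Per kilobase of exon, the scale on which genes of different length can be compared, the order was SLC25A35 with 289.6 ± 36 and SLC9B1 with 287 ± 20.5 CPM per kilobase, then SLC16A4 with 177 ± 46.1, SLC18A2 with 150.1 ± 24.8 and SLC7A6 with 148 ± 10.3 (SD, n = 3 each). SLC25A35 and SLC9B1 did not differ beyond their spread, nor did the next 3 among themselves. SLC22A23 followed with 118 ± 6.21 and SLC3A1 with 113 ± 24.6 CPM per kilobase. The median of the 76 was 11.7 CPM per kilobase, against 14.5 over the 3559 genes past the same threshold that had an exon length, with quartiles of 6.17 and 38.1 against 6.75 and 38.1. The lowest was SLC35A3, a UDP-N-acetylglucosamine carrier of the Golgi, with 1.01 ± 0.324 CPM per kilobase over 18238 bp of exon.

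Carriers of sodium, potassium, chloride, calcium, bicarbonate and protons and the genes named after them formed the largest class, with 15 of 56 names past the threshold and 23.4% ± 0.332 (SD, n = 3) of the counts. Their summed level was 2972, 2992 and 2993 CPM in replicates 1, 2 and 3. Without SLC4A1AP and SLC9A3R1, which are not carriers, the sum of the 13 others was 2535, 2803 and 2689 CPM, lowest in replicate 1. Of the 15, 6 varied beyond counting noise, beside 37.6% of all genes past the threshold, and SLC4A1AP was 1 of the 6. SLC9B1, a sodium-proton exchanger known mainly from testis (chromosome 4, 102885048 to 103019739), had 399, 343 and 261 counts, or 912, 791 and 860.2 CPM. Its libraries were close together. SLC4A5, an electrogenic sodium bicarbonate cotransporter (chromosome 2, 74216242 to 74343414), had 213, 238 and 163 counts, and its 524 ± 32.8 CPM (SD, n = 3) was equally even.

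The calcium exchangers SLC24A1, known from rod photoreceptors, and SLC24A5, known from pigment cells, were highest in replicate 2, with 269.7 CPM against 144 and 165 for SLC24A1 and 205 CPM against 101 and 148 for SLC24A5. The Golgi sodium-proton exchanger SLC9A7 on the X chromosome showed the same order, with 288 CPM in replicate 2 and 139 and 168 in replicates 1 and 3. The gut and kidney exchanger SLC9A3 showed the opposite, with 64.5 CPM in replicate 2 and 158 and 125 in the other libraries.

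Amino acid and peptide carriers came next, with 10 of 69 names and 2531 ± 195 CPM in sum, or 2177 ± 201 CPM without SLC7A6OS (SD, n = 3). SLC7A6, which exchanges cationic for neutral amino acids (chromosome 16, 68264516 to 68301823), had 507, 450 and 359 counts, or 1159, 1037 and 1183 CPM. The gene on its other strand, SLC7A6OS (68284503 to 68310946), had 151, 161 and 105 counts, or 345, 371 and 346 CPM. Neither gene varied beyond counting noise at the main scaling, SLC7A6 was above SLC7A6OS in each library, and their exons share 3371 bp. SLC3A2, the heavy chain that SLC7A6 needs, had 4, 2 and 2 counts.

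SLC3A1 (chromosome 2, 44275458 to 44321494) had 585, 733 and 906 CPM in replicates 1, 2 and 3, and was high in replicate 3 and low in replicate 1. SLC1A4, a neutral amino acid exchanger, had 39, 73 and 23 counts and was high in replicate 2. Its relative SLC1A5, the main glutamine importer of many dividing cells, had 28, 9 and 7 counts and was high in replicate 1. The serotonin transporter SLC6A4 had 31, 10 and 27 counts and SLC38A10 had 12, 5 and 21; replicate 2 was lowest in both.

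Carriers of organic ions, stored neurotransmitters and drugs had 4 of 30 names past the threshold, and SLC22A23 and SLC18A2 made up most of their 1723 ± 129.8 CPM (SD, n = 3). SLC22A23, a family member whose cargo is not established (chromosome 6, 3268962 to 3457022), had 478, 461 and 299 counts, or 1093, 1063 and 985 CPM, with little spread. SLC18A2, the transporter that loads monoamines into vesicles (chromosome 10, 117241073 to 117279430), had 542, 738 and 587 CPM and was high in replicate 2.

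Monocarboxylate, other carboxylate and phosphate carriers had 7 of 33 names past the threshold and summed to 825, 1256 and 1051 CPM in replicates 1, 2 and 3. SLC16A4 (chromosome 1, 110362848 to 110391082) had 187, 311 and 164 counts, and SLC16A6 (chromosome 17, 68267026 to 68291267) had 96, 159 and 85. Both are monocarboxylate transporter family members and both were highest in replicate 2, which also had the highest sum of the class. SLC16A1, the main lactate and pyruvate carrier of many cells, had 14, 18 and 25 counts and was highest in replicate 3.

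Mitochondrial carriers of the SLC25 family had 11 of 50 names past the threshold and 1639 ± 193 CPM in sum (SD, n = 3). SLC25A35, whose cargo is not established (chromosome 17, 8287763 to 8295343), had 537, 420 and 361 counts, or 1228, 968 and 1189.8 CPM, and replicate 2 was low. SLC25A21, the oxodicarboxylate carrier, had 104, 66 and 51 counts, or 238, 152 and 168 CPM, and was high in replicate 1. The muscle and heart ADP/ATP carrier SLC25A4 had 23, 26 and 23 counts. The other 8 lay between 21.0 and 59.5 CPM on average.

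Sugar carriers had 6 of 32 names past the threshold. SLC2A12, a facilitative glucose transporter (chromosome 6, 133988697 to 134052636), had 297, 417 and 438 CPM, with replicate 1 low. SLC5A2, the sodium glucose cotransporter of the proximal tubule (chromosome 16, 31483002 to 31490860), had 302, 244 and 353 CPM. SLC5A6, which the family number places here although it carries biotin and pantothenate, had 354, 189 and 274 CPM. Replicate 2 was lowest in both, and only SLC5A6 passed the test of spread. SLC2A1, the basal glucose transporter, had 24, 11 and 19 counts.

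Among vitamin, haem, nucleoside and related carriers, 4 of 27 names passed the threshold. The proton-coupled folate transporter SLC46A1 (chromosome 17, 28394756 to 28407197) had 197, 128 and 89 counts and was high in replicate 1. Its relative SLC46A2 had 6, 24 and 6 counts and was high in replicate 2. The nucleoside carrier SLC29A2 had 12, 14 and 16 counts.

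Metal carriers had 7 of 32 names past the threshold. The copper-related SLC31A2 had 100, 104 and 74 counts, or 229, 239.7 and 244 CPM, among the most even of the 76, whereas the copper importer SLC31A1 on the same chromosome had 44, 18 and 17 counts and was high in replicate 1. The zinc carriers SLC39A1, with 32, 18 and 24 counts, and SLC30A7, with 27, 61 and 14, had their extremes in replicate 2, the former low, without passing the test of spread, and the latter high. SLC39A6, another zinc importer, had 5, 5 and 6 counts and was the lowest of the 76.

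Nucleotide sugar and sugar phosphate carriers had the highest share of names past the threshold, 10 of 35, but 622 ± 22.6 CPM in sum (SD, n = 3). The CMP-sialic acid carrier SLC35A1 had 53, 74 and 32 counts. The carrier of the sulphate donor PAPS, SLC35B2, had 25, 12 and 15. Carriers of fatty acids, bile acids, sterols and acetyl-CoA had 2 of 16: the bile acid importer of the liver SLC10A1, with 43, 39 and 26 counts, and SLC27A1, a fatty acid transport protein, with 65, 43 and 34.

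**Figure D2:**
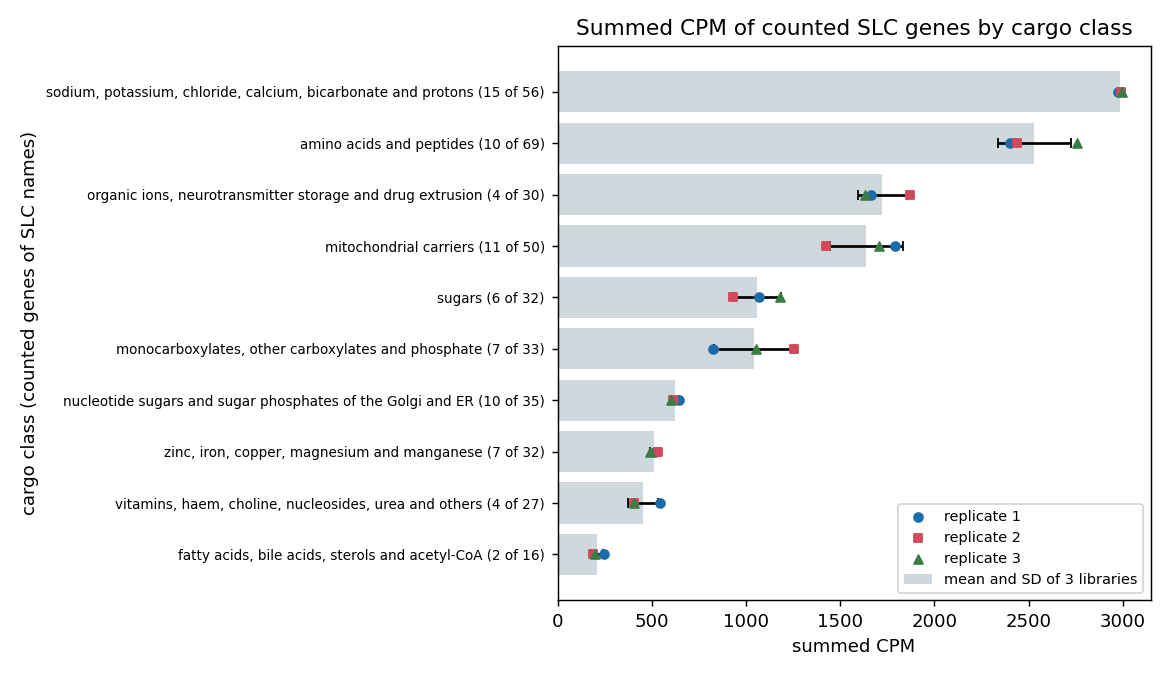
Summed CPM (linear axis from 0) of the counted SLC genes in each cargo class, as the mean with SD over 3 libraries (bars) and as each library (points). The class of ion carriers, which holds SLC4A1AP and SLC9A3R1, sums to 2972 to 2993 CPM, while monocarboxylate and related carriers run from 825 in replicate 1 to 1256 in replicate 2.

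Of 14 SLC genes listed as widely and strongly expressed in cultured cells, 4 passed the threshold (SLC1A5, SLC2A1, SLC16A1 and SLC39A6), or 28.6%, beside 76 of 380 SLC names and 14.3% of all names, 12 had a count in some library, and the sum of all 14 was 141 to 260.4 CPM per library. SLC25A6 and the nucleoside carrier SLC29A1 had no count. The light chain SLC7A5 had 1, 0 and 2 counts, the phosphate carrier SLC25A3 had 0, 2 and 5, the ADP/ATP carrier SLC25A5 had 2, 4 and 3, and the amino acid carrier SLC38A2 had 1, 2 and 0. The amino acid carrier SLC38A1 had 8, 3 and 1, the chloride cotransporter SLC12A2 had 2, 4 and 6, and the phosphate importer SLC20A1 had 14, 1 and 3. HTSeq by default does not count multiply aligned reads, and SLC25A5 and SLC25A6 have processed copies in the genome, so their counts are uncertain on that ground as well as through the strand setting. Of 12 nephron transporters listed, SLC5A2 and SLC9A3 passed the threshold, and SLC13A3, SLC22A8, SLC22A12, SLC47A1 and SLC4A4 had no count. The phosphate carriers SLC34A3 and SLC34A1 had 7, 2 and 8 and 3, 0 and 4 counts, and SLC12A1, SLC12A3 and SLC22A6 had at most 2 in any library. SLC5A2 and SLC9A3 both have exons opposite, of C16orf58 and EXOC3.

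Transporters of the superfamily and accessory proteins under other symbols had 16 of 51 listed names past the threshold, of which 6 varied beyond counting noise (37.6% of all genes past the threshold did), 3 with replicate 2 highest and 2 with it lowest. MFSD11, an orphan carrier, had 1807, 818 and 1075 counts, more in sum than any of the 76, and its exons share bases with SRSF2, a splicing factor gene on the other strand. The sphingosine phosphate exporter SPNS2 had 348, 184 and 186 counts and overlaps exons of MYBBP1A. ANKH, which exports pyrophosphate or its precursors, had 172, 269 and 101 counts and no exon opposite. BSG, the chaperone of the monocarboxylate carriers, had 5, 1 and 1, and 15 of the 51 had no count.

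A gene on the opposite strand shared exonic bases with 49 of the 76 genes, or 64.5%, and these held 89.4% ± 1.44 (SD, n = 3) of the counts of the 76. Over all genes past the threshold, those with an exon opposite held 79.2% ± 1.15 of the counts (SD, n = 3). Without the most abundant gene they held 73.0% ± 1.1. The overlap with an opposite exon was not used to choose the genes. The share of genes with an exon opposite was 64.5% over all 3559 matched genes past the threshold, so by this share the 76 did not stand apart from other counted genes. It was 31.6% over the 304 SLC names under the threshold. Seen from the annotation, 33.8% of the 145 SLC names with an exon opposite reached 5 counts in every library and 11.5% of the 235 without one did; over all matched names these shares were 29.4% and 7.53%.

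Overlap was most frequent among the highest genes. Of the 19 highest by CPM, 18 had an exon opposite, and the exception was SLC9A7. Of the next 19 it was 12, then 11, and of the 19 lowest it was 8. Over all genes past the threshold, cut by CPM into 4 equal parts, it was 81.6%, 67.4%, 58% and 51.6% from the top part down. Across the 49 genes, overlap length and mean CPM had a Spearman's rho of 0.47, which describes genes of the same libraries and is no test. The 49 had a median of 82.6 CPM and the 27 without an exon opposite 33.9 CPM. Levels in this comparison are not divided by exon length, and the part of length in it was not tested. Above 100 CPM there were 24 of the former and 3 of the latter, SLC9A7, SLC35A1 and SLC1A4.

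**Figure D3:**
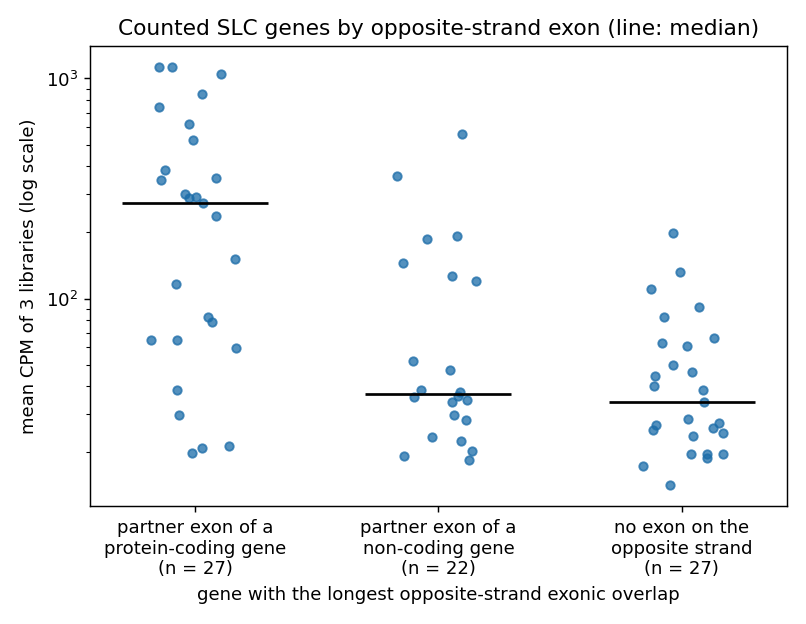
Mean CPM (log axis) of each of the 76 genes, grouped by the gene with the longest exonic overlap on the opposite strand; the line is the median. The 27 genes whose longest overlap is with a protein-coding gene have a median of 272 CPM. The median is 36.8 for the 22 whose longest overlap is with a non-coding gene or pseudogene and 33.9 for the 27 with none.

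In 24 of the 49 the genes met tail to tail, with their 3′ ends overlapping, as in SLC7A6, SLC22A23, SLC9B1, SLC3A1, SLC18A2, SLC4A5 and SLC2A12. This was 49%, against 47.9% of all genes past the threshold with an exon opposite and 31.2% of the 96 such SLC names under it. In 16 the overlap was head to head, as in SLC4A1AP and SLC5A6, in 7 the partner lay inside the SLC gene, as RANGRF does in SLC25A35, and in 2 (SLC16A4 and SLC16A6) the SLC gene lay inside the partner. The overlap ran from 76 to 4821 bp with a median of 534 bp, and in 32 of 49 it reached coding sequence of the SLC gene. At SLC46A1 it covered 61.5% of the exon length, at SLC7A6 55.6%, at SLC9B1 6.92% and at SLC16A4 4.20%. Exons of another gene on the same strand overlapped 15 of the 76, where HTSeq by default leaves shared reads uncounted.

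For 32 of the 49 the partner had a row in the count tables, and in 21 of these the SLC gene had more counts than the partner in every library. This share of 65.6% was close to the 66.3% of 1718 pairs over all genes past the threshold, a threshold that itself favours the counted gene. SLC22A23 had 478, 461 and 299 counts against 0, 0 and 2 for PSMG4, a proteasome assembly chaperone. SLC9B1 had 399, 343 and 261 against 2, 3 and 7 for CISD2, an iron-sulphur protein of the endoplasmic reticulum and mitochondria. SLC4A5 had 213, 238 and 163 against 3, 4 and 15 for MTHFD2, a mitochondrial folate enzyme known to be high in dividing cells.

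SLC3A1 stood against PREPL with 0, 11 and 5 counts, SLC18A2 against PDZD8 with 10, 14 and 5, SLC2A12 against TBPL1 with 7, 9 and 10, and SLC5A2 against C16orf58 with 1, 0 and 0. Each of these partners was far below its SLC gene in every library. The order was the reverse in 5 pairs, those of SLC25A22, SLC25A26, SLC25A32, SLC46A1 and SLC7A6OS. SLC25A32, a mitochondrial folate carrier, had 26, 23 and 20 counts against 242, 182 and 170 for DCAF13, and SLC46A1 had 197, 128 and 89 against 209, 164 and 137 for SARM1. In 6 pairs the order changed between libraries, as for SLC4A1AP, with 176, 76 and 86 counts against 133, 144 and 139 for SUPT7L. The pair of SLC7A6 and SLC7A6OS is counted from either side.

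**Figure D4:**
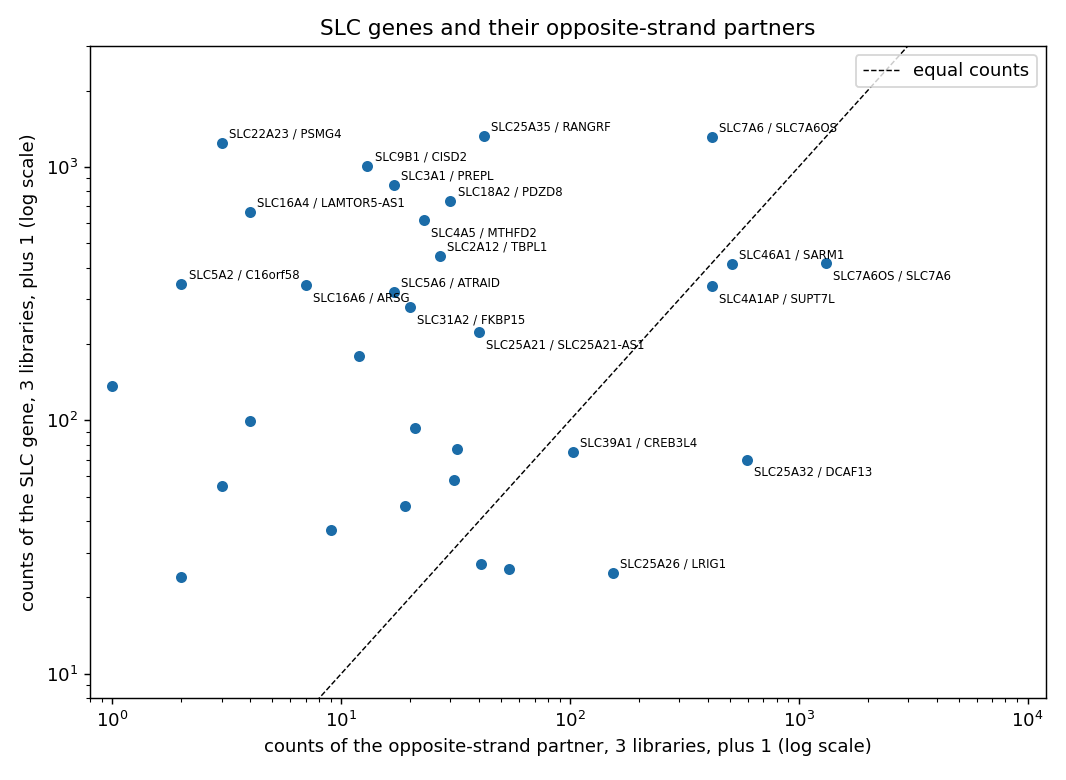
Counts over 3 libraries plus 1 of the SLC gene (vertical, log axis) against those of its opposite-strand partner (horizontal, log axis) for the 32 genes whose partner has a row in the tables. Most points lie above the line of equal counts; SLC25A32, SLC25A26, SLC46A1 and SLC7A6OS are among those below it.

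The 27 genes without an exon opposite were SLC9A7, SLC35A1, SLC1A4, SLC10A1, SLC30A7, SLC31A1 and 20 of lower mean CPM. For some the nearest opposite-strand gene outside the span of the SLC gene was close by. HSP90AB1, the gene of an abundant chaperone, lay 208 bp from SLC35B2, CHST7 844 bp from SLC9A7 and RARS2 2042 bp from SLC35A1. Each was at the 3′ end of the SLC gene. SRSF5 lay 3412 bp from SLC10A1, also at its 3′ end, and EXTL2 lay 78 bp from SLC30A7 at the 5′ end. The span of SLC30A7 itself overlaps HNRNPA1P68 on the other strand, without shared exonic bases. Whether reads from these neighbours reach the SLC genes was not tested.

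Spread between replicates was larger than counting noise in 24 of the 76 genes (31.6%; edgeR Poisson fit, adjusted p under 0.05), against 37.6% of all 3798 genes past the threshold. The count threshold in every library leaves out genes that were low in a single library, so both shares describe only the genes that passed it. The median coefficient of variation beyond counting noise was 0.173 for the 76 and 0.215 for all. Replicate 2 was highest in 9 of the 24, or 9 of 76 against 18% of all genes, and lowest in 10, or 10 of 76 against 13.6%. With the minimum raised to 10 counts, 21 of 47 SLC genes passed the test, against 45.8% of all. With total counts in place of scaled library sizes the median log2 ratio of replicate 2 over all genes moved from -0.06 to -0.29, and 29 genes passed, 7 with replicate 2 highest and 18 lowest; SLC7A6, SLC9B1, SLC22A23, SLC5A2, SLC2A1, SLC39A1 and SLC27A1 were then past the test and SLC18A2 and SLC16A6 were not.

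The genes highest in replicate 2 included SLC46A2, SLC30A7, SLC1A4, SLC9A7, SLC24A1 and SLC24A5, where the log2 ratio of replicate 2 to the mean of replicates 1 and 3 was 1.69, 1.37, 1.02, 0.90, 0.80 and 0.72. Adjusted p was 0.00526 for SLC46A2, 1e-04 for SLC30A7 and 3.03e-05 for SLC9A7 (edgeR). The genes lowest there included SLC38A10 with a log2 ratio of -2.02, SLC6A4 with -1.77, SLC9A3 with -1.13, SLC1A5 with -1.05, SLC4A1AP with -0.97 and SLC5A6 with -0.73. SLC4A1AP had the smallest adjusted p of the 76, 4.03e-08. Among the genes where replicate 2 lay between the others were SLC3A1, SLC2A12, SLC46A1 and SLC16A1, in which replicates 1 and 3 differed.

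These were also among the 5 of the 76 genes that passed the test without replicate 2, against 7.73% of all 4256 genes then tested, and of the 5 only SLC3A1 passed without each library in turn and under each scaling. Without replicate 1, 12 genes passed (21.9% of all), and the calls lost included those of SLC2A12, SLC46A1, SLC18A2, SLC1A5, SLC5A6 and SLC46A2. Without replicate 3, 22 passed (26.2% of all), and SLC38A10, SLC16A1 and SLC25A21 did not. The call of SLC25A21 was also lost with DESeq2 size factors. The median log2 ratio of replicate 2 was -0.14 over the 76, from -2.02 to 1.69. Of the 49 genes with an exon opposite, 19 passed the test (38.8%, beside 38.9% of all such genes past the count threshold). Of the 27 without one, 5 did (18.5%, beside 33.2%), namely SLC9A7, SLC30A7, SLC1A4, SLC31A1 and SLC6A4; the difference was not tested.

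**Figure D5:**
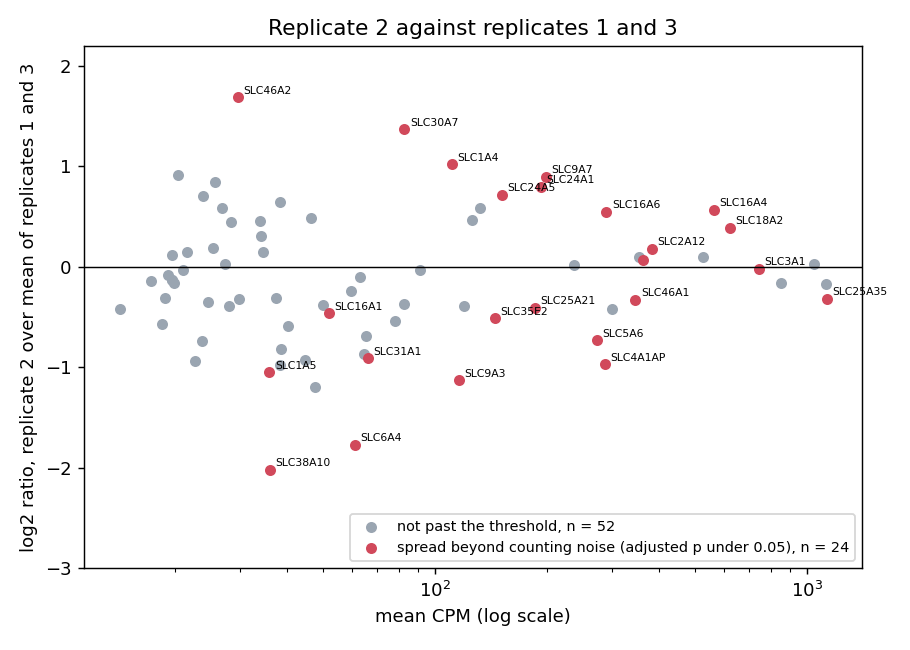
Log2 ratio of replicate 2 to the mean of replicates 1 and 3 against mean CPM (log axis) for the 76 genes; red points are the 24 with spread beyond counting noise. Red points lie on either side of 0, from SLC46A2 at 1.69 to SLC38A10 at -2.02, and those near 0 (such as SLC3A1 and SLC2A12) differ between replicates 1 and 3.

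Just inside the threshold were SLC39A6 with 5, 5 and 6 counts, SLC35A3 with 11, 6 and 5 and the organic cation carrier SLC22A4 with 5, 13 and 6. Just outside were the aspartate glutamate carrier SLC25A12 with 13, 34 and 4, the ascorbate carrier SLC23A1 with 4, 19 and 10 and the anion exchanger SLC26A4 with 17, 11 and 4.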

How the data were processed

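Gene-level counts were analysed for 3 HEK293 libraries. The deposited tables hold raw whole-number counts per gene symbol. Per the submitters' processing notes, the authors used Trimmomatic, HTSeq 0.11.2 and TopHat2, listed as 2.2.5, with the hg38 build; no source used here gives the annotation, the strand setting or the read layout. Library sizes exclude the 5 HTSeq summary lines.

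CPM used TMM effective library sizes (edgeR 4.0.16, R 4.3.3). All genes meeting the 5-count threshold were fitted with edgeR at a dispersion of 0 and an intercept, and each deviance was referred to chi-square, with Benjamini-Hochberg adjustment over all of them and a threshold of 0.05. Log2 ratios used a prior of 0.5 CPM. In simulated counts, the test called 44.9% of 49 genes changed 2-fold in replicate 2, 89.4% of 47 changed 4-fold and 0.0683% of 4395 unchanged genes. The changed genes were drawn from those with expected counts of at least 10 in every library before the change. The shares called among them therefore do not cover genes nearer 5 counts.

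Names were matched to GENCODE 29 on GRCh38 (24607 names, 92.9%, 707 through older or newer symbols). Exons of all transcripts were merged, and any shared exonic base on the other strand counted as overlap. The partner is the gene with the longest overlap.

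The genes and lists were chosen with earlier results of these data known. Named were the 12 highest by CPM, the 10 highest per kilobase, the 10 with the largest excess variation among those past the test, the 2 highest of each class per kilobase, their partners, the members of the lists, and the 3 names on each side of the threshold; others were chosen after their values were seen. For 1 gene, included in counts and sums, no values are reported here. Classes follow the family number. Alternatives were DESeq2 1.42.0 size factors, total counts, other filters, a Pearson statistic, other overlap and length definitions and leaving out each library. Python 3.11.15, scipy 1.17.1 and matplotlib 3.10.9 were used.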

Additional observations from a re-analysis of the deposited data

Results flagged for a closer look

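Of 14 antisense names built on an SLC symbol, which the hyphen kept out of the 76 genes, 5 had more than 3 counts in every library. Counts above what a count of 0 allows, in names outside the main measurement, are why they are listed. SLC25A5-AS1 had 654, 451 and 531 counts in replicates 1, 2 and 3, or 1428 ± 360 CPM (SD, n = 3), a higher mean than any of the 76 SLC genes though in replicate 2 it was below SLC22A23 with 461 counts, while SLC25A5 itself had 2, 4 and 3; the exons of the pair share 227 bp. SLC7A11-AS1 had 69, 79 and 49 counts, or 167 ± 13.1 CPM, against 21, 3 and 4 for the cystine glutamate exchanger gene SLC7A11. SLC25A25-AS1 had 24, 12 and 4 counts (31.9 ± 21.2 CPM) against 8, 7 and 11 for SLC25A25, and SLC16A1-AS1 had 16, 4 and 10 (26.3 ± 14.9 CPM) against 14, 18 and 25 for SLC16A1. SLC8A1-AS1 had 5, 19 and 5 counts (23.9 ± 17.4 CPM) against 0, 0 and 2 for the sodium calcium exchanger gene SLC8A1. The strand option of the counter bears on each of these pairs and was not tested.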

How the results depend on the processing

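No paired analysis was possible because the 3 libraries form 1 group. The number of SLC genes past the threshold was 47 at 10 counts in every library, 152 at 1 count and 117 at a mean of 5 counts, and 80 to 95 when a library was left out. Genes with spread beyond counting noise numbered 22 to 29 of the 76 under the other scalings, no filter and the Pearson statistic, 21 of 47 at 10 counts, and 5 to 22 when a library was left out, with 12 without replicate 1 and 5 without replicate 2; over all genes they numbered 329 to 1262 when a library was left out and 2914 of 14482 with no filter. Summed CPM was 16249 when the most abundant gene was left out of the library sizes and 12374 to 13558 without a library. The share of genes with an exon opposite was 43.4% when only exons of protein-coding genes were counted, whether or not such a gene had the longest overlap. It was 74.5% of the 47 genes with 10 counts. The median level was 14.1 CPM per kilobase of the longest transcript and 10.3 to 12.8 without a library. The share of counts in genes with an exon opposite kept its value within the replicate spread under the alternatives run for it. The median log2 ratio of replicate 2 over the 76 genes was -0.14 at the main scaling and -0.07 with DESeq2 size factors. With total counts it was -0.36, beside -0.29 over all genes, and with a prior of 5 CPM it was -0.11. Of 175 repeated tests of 35 named genes, 135 gave the same outcome as the main test, 31 lost a call and 9 gained one. Only the 20 of these genes that passed the main test could lose a call, and 15 of the 20 lost it without replicate 2. The 135 therefore include genes that stayed uncalled. At 5 counts a library, the depth limits the test to large differences.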

Other observations

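Some SLC names outside the threshold were kept out by a single low library, and were chosen here after their values were seen. SLC35G2 had 6, 30 and 0 counts in replicates 1, 2 and 3, the sodium glucose family member SLC5A9 had 7, 26 and 1, and SLC25A12 had 13, 34 and 4. Replicate 2 held most of the counts of each of these. Others kept out by a single library were highest in replicate 1, as SLC4A8 with 21, 4 and 7 counts and SLC26A4 with 17, 11 and 4. SLC23A1, with 4, 19 and 10, was highest in replicate 2.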
